A study of Mus musculus with 20 samples.

Results

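Immune checkpoint ligands and receptors were described in leukocytes and other cells of mammary tumours grown from the mouse lines 66cl4 and 67NR. The 10 genes were taken by name from the gene count table, in which each symbol was matched to one mouse Ensembl gene among 52783 genes. None was picked by a rule on its values, but the list was chosen with earlier results of these data known. They comprise the ligands Cd274 (PD-L1), Pdcd1lg2 (PD-L2), Cd80, Cd86 and Vsir (VISTA, which also acts as a receptor) and the receptors Pdcd1 (PD-1), Ctla4, Lag3, Havcr2 (TIM-3) and Tigit. Both cell lines belong to the 4T1 breast cancer model of the BALB/c mouse and were grown in the mammary fat pad of young adult, immunocompetent BALB/cJ females, where 67NR forms tumours that do not metastasise and 66cl4 forms tumours that do. The dissociated tumours were sorted by surface CD45, the protein encoded by Ptprc and carried by leukocytes, into a CD45+ and a CD45- fraction, which gave 4 groups of 5 libraries from 10 animals: 66cl4 CD45+, 67NR CD45+, 66cl4 CD45- and 67NR CD45-. No group received any further treatment, each tumour type rests on a single cell line, and the CD45- fraction holds the injected tumour cells together with host stroma and vessels.

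T cells are activated when a signal through the antigen receptor is joined by a costimulatory one from CD28, which binds CD80 and CD86 on antigen-presenting cells. Checkpoint receptors hold this response back: CTLA-4 competes with CD28 for CD80 and CD86, PD-1 is engaged by PD-L1 and PD-L2, TIGIT competes with CD226 for the poliovirus receptor (Pvr) and nectins, and LAG-3 and TIM-3 are induced on T cells that are stimulated for long. Natural killer (NK) cells also carry TIGIT and LAG-3, myeloid cells carry TIM-3 and VISTA, and tumour cells as well as myeloid cells can display PD-L1.

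Library totals ran from 12960000 to 28080314 estimated counts. The recorded cell type of both fractions of 66cl4 animals 5 and 6 is the opposite of what their titles say, and the titles were followed here. Ptprc was higher in the library titled CD45+ than in the one titled CD45- in all 10 animals, between 15890 and 28449 normalised counts against 10.6 to 473. The CD45+ fractions carried T cell, NK cell, macrophage and neutrophil markers, while Ptprc in CD45- cells was lower in 66cl4 than in 67NR tumours by 1.79 on the log2 scale (adjusted p = 0.0361, edgeR quasi-likelihood test). Normalised counts are estimated counts divided by a size factor for each library. In such sorted bulk samples, fewer cells of a type and less RNA per cell cannot be told apart.

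RefSeq promoters, from 250 bases before to 50 bases after each start, were found for 8 of the 10 genes and are printed for 4 of them, on the strand of the gene in build GRCm38.p6. Tigit (chr16:43664135-43664434) and Cd80 (chr16:38458683-38458982) are shown because their difference between the tumours went in opposite directions in the sorted fractions. Cd274 (chr19:29367188-29367487) and Pdcd1lg2 (chr19:29410669-29410968) are shown because they are neighbours, 22823 bases apart in the GENCODE M21 annotation of GRCm38, and yet differed widely in CD45- cells. Capitals mark matches, on either strand, to 6 motifs.
Tigit: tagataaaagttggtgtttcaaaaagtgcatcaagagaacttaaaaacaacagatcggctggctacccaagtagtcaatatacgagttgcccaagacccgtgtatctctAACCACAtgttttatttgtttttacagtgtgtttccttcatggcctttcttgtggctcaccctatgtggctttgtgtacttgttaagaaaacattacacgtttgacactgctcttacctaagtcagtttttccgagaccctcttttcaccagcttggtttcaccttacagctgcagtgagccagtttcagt
Cd80: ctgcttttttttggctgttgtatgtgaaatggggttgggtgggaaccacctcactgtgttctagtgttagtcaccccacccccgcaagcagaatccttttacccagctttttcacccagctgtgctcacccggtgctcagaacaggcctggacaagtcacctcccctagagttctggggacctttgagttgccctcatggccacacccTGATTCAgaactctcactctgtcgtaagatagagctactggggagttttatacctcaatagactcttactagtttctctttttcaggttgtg
Cd274: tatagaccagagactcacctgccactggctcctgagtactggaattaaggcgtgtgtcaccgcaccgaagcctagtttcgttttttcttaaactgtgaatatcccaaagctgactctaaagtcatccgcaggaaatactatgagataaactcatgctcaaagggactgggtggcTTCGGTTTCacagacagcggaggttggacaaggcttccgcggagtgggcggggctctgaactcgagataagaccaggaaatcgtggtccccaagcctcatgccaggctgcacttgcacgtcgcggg
Pdcd1lg2: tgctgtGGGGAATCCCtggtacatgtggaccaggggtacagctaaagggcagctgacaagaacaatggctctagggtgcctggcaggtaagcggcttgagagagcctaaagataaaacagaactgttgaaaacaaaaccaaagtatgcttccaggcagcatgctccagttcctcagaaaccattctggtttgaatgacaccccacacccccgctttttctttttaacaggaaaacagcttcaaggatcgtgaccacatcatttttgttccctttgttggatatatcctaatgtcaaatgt
The motifs searched were the STAT site TTCNNNGAA, the interferon response core GAAANNGAA, the AP-1 site TGANTCA, the T-box site AGGTGTGA, the RUNX site TGTGGTT and the consensus of NF-kB. The capitals are a RUNX match in Tigit, an AP-1 match in Cd80, an interferon response match in Cd274 and an NF-kB match in Pdcd1lg2, and no match overlaps another. With a further A at the end of the interferon response letters, the Cd274 window held no match. Among 32851 RefSeq promoters of the same length, 5.27% held the RUNX site, 7.81% the AP-1 site, 8.56% the interferon response letters (3.44% with the further A) and 8.46% the NF-kB consensus, against 8.3% for the STAT site and 1.28% for the T-box site. Matches of such short letters are a description and not evidence of binding.

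In CD45+ cells, all 10 genes were detected in each of the 10 libraries. In TPM, a measure of transcript abundance that allows for transcript length, Vsir was highest in 66cl4 tumours at 249.6 ± 44.3 (SD, n = 5), followed by Cd86 at 215 ± 64.3, with overlapping ranges, and Lag3 was lowest at 3.24 ± 1.11. In 67NR tumours Vsir at 238 ± 70.9 and Cd86 at 126 ± 15.1 again led, and Pdcd1lg2 was lowest at 5.82 ± 1.58. The order changed in the middle: Cd80 had rank 3 in 66cl4 tumours at 106 ± 35.7 TPM but rank 6 in 67NR tumours at 23.7 ± 5.11 TPM, while Tigit had rank 6 in 66cl4 tumours at 18.4 ± 6.83 TPM and rank 3 in 67NR tumours at 56.8 ± 21.8 TPM. Neighbours in these orders mostly overlapped; Cd86 lay above the next gene without overlap in both tumour types.

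**Figure D1:**
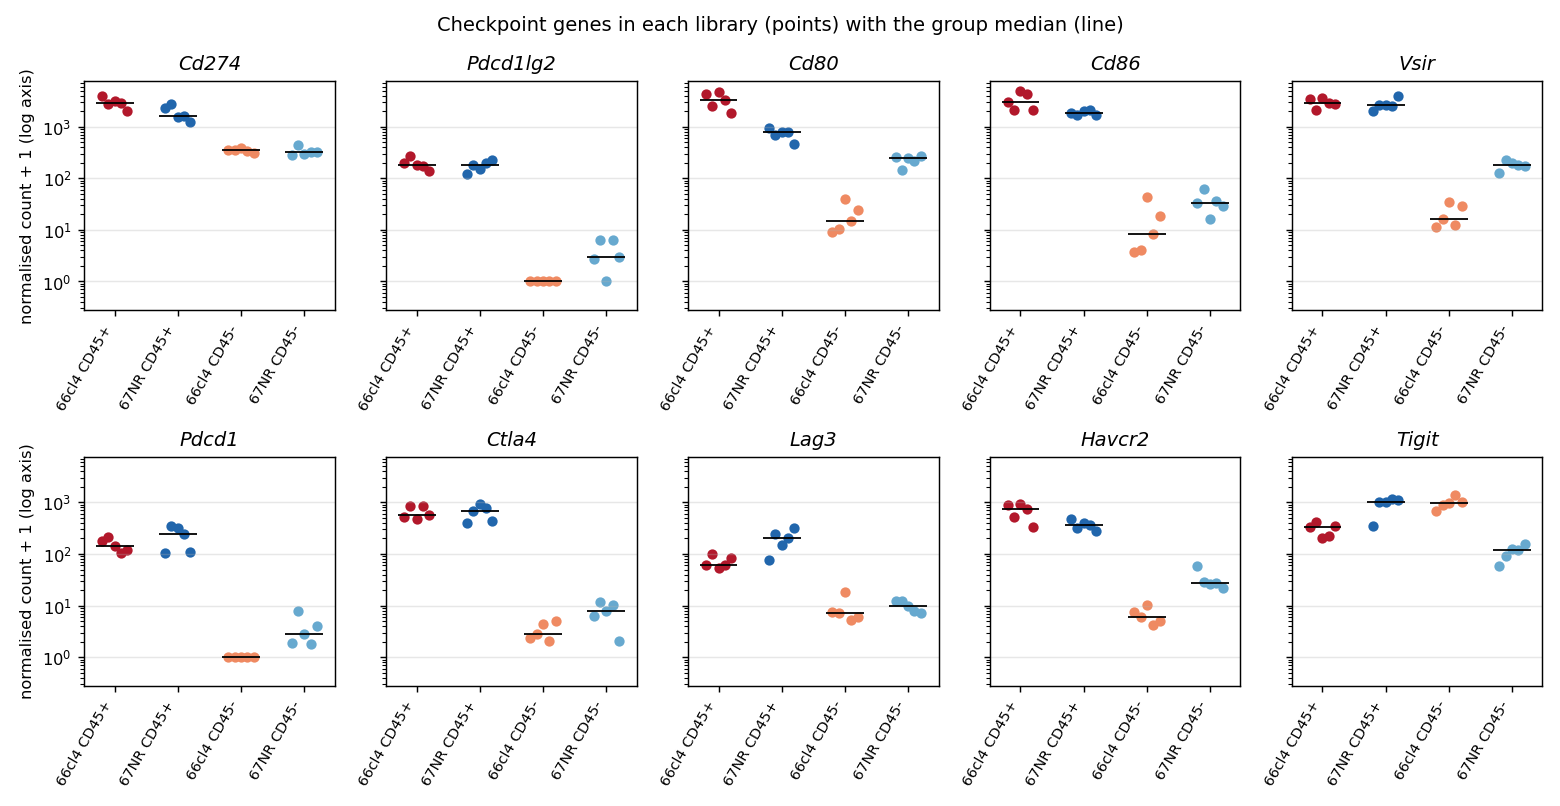
Normalised counts plus 1 on a log axis for the 10 checkpoint genes in the 4 groups; each point is 1 library and each line a group median. Tigit is the gene whose 66cl4 CD45- libraries, at 687.5 to 1376, lie above the 66cl4 CD45+ libraries, at 203.5 to 408, and Pdcd1 and Pdcd1lg2 are at 0 in all 5 libraries of 66cl4 CD45- cells.

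The first comparison asked which of these genes differed between CD45+ cells of 66cl4 and of 67NR tumours. Among the 10 genes, all of which were tested, Cd80 rose in 66cl4 tumours and Tigit and Lag3 fell, by an adjusted p under 0.05 and a log2 fold change beyond 1 (edgeR). These 3 of 10 compare with 11.8% of the 14676 genes tested, of which 5.01% were higher and 6.82% lower in 66cl4. The median log2 fold change of the 10 genes was 0.13, against 0.01 over all genes tested.

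Cd80, a ligand of CD28 and CTLA-4, had normalised counts of 4289, 2517, 4775, 3323 and 1817 in 66cl4 animals 3 to 7 and of 933, 688, 801, 792 and 455 in 67NR animals 1, 4, 5, 6 and 7. The ranges did not overlap, 66cl4 tumours being higher, and the log2 fold change was 2.19 ± 0.28 (SE), or 4.56-fold (adjusted p = 0.000411, edgeR). Its companion Cd86 had 3060, 2148, 4816, 4236 and 2115 normalised counts in 66cl4 and 1862, 1656, 1999, 2067 and 1700 in 67NR tumours. These ranges were also apart, as they were for 15.1% of all genes tested, but the log2 difference of 0.83 ± 0.22 stayed under the fold threshold (adjusted p = 0.0186, edgeR). The ratio of Cd80 to Cd86 in TPM was 0.376 to 0.671 in 66cl4 libraries, against 0.128 to 0.240 in 67NR libraries, without overlap (p = 0.00794, exact two-sided permutation test, the smallest p that 5 against 5 libraries allow; 6 such ratios were compared). Cd80 was thus higher relative to Cd86 in every 66cl4 library.

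The other ligands did not pass the test. Cd274 had between 1973 and 3939 normalised counts in 66cl4 and between 1259 and 2753 in 67NR tumours, with overlapping ranges and a log2 fold change of 0.63 ± 0.24 (adjusted p = 0.0845, edgeR). Pdcd1lg2, the second PD-1 ligand, had 139.5 to 265 against 122 to 227 normalised counts and a log2 fold change of 0.14 ± 0.20. For Vsir the ranges were 2094 to 3523 and 1973 to 3945, and the log2 fold change was 0.12 ± 0.18. A gene on the opposite strand overlaps the span of Cd274, of Pdcd1lg2 and, in the case of Cdh23, of Vsir; the strand setting of the counting is not given in the sources used here, and whether reads were shared was not tested.

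Among the receptors, Tigit had 327, 408, 203.5, 221 and 354 normalised counts in 66cl4 animals 3 to 7 and 349.6, 1002, 1002, 1150 and 1129 in 67NR animals 1, 4, 5, 6 and 7. The library of 67NR animal 1 lay within the range of 66cl4 tumours and the other 4 lay above it, and the log2 fold change was -1.59 ± 0.30 (adjusted p = 0.00387, edgeR). Lag3 had 59.8, 97.5, 53.0, 61.0 and 81.1 normalised counts in 66cl4 and 74.9, 239.6, 147, 206 and 323 in 67NR tumours. Again 67NR animal 1 was the one that overlapped, and the log2 fold change was -1.46 ± 0.32 (adjusted p = 0.00784, edgeR). This call did not hold without 66cl4 animals 5 and 6, whose labels conflict (log2 fold change -1.30, adjusted p = 0.0611, edgeR).

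Ctla4, the receptor that shares CD80 and CD86 with CD28, had 475 to 851 normalised counts in 66cl4 libraries, against 392 to 930 in 67NR tumours, and the log2 fold change was 0.05 ± 0.26. The annotated gene Rpl18-ps1 overlaps the span of Ctla4 on the same strand, and whether reads were shared was not tested. Pdcd1 had 104 to 212 against 105 to 347 normalised counts and a log2 fold change of -0.57 ± 0.35 (adjusted p = 0.285, edgeR). For Havcr2 the normalised counts were 327 to 934 in 66cl4 libraries, against 274 to 478 in 67NR tumours. Its log2 fold change of 0.91 ± 0.27 had an adjusted p of 0.0308 (edgeR) but lay under the fold threshold, which it passed without 66cl4 animal 7 (1.08) or without 67NR animal 1 (1.01). In TPM, the ratio of Tigit to Ctla4 was 0.196 to 0.470 in 66cl4 libraries, against 0.671 to 1.955 in 67NR libraries, and that of Lag3 to Ctla4 was 0.0411 to 0.0805 and 0.0902 to 0.424, both without overlap (p = 0.00794 each, exact permutation test).

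**Figure D2:**
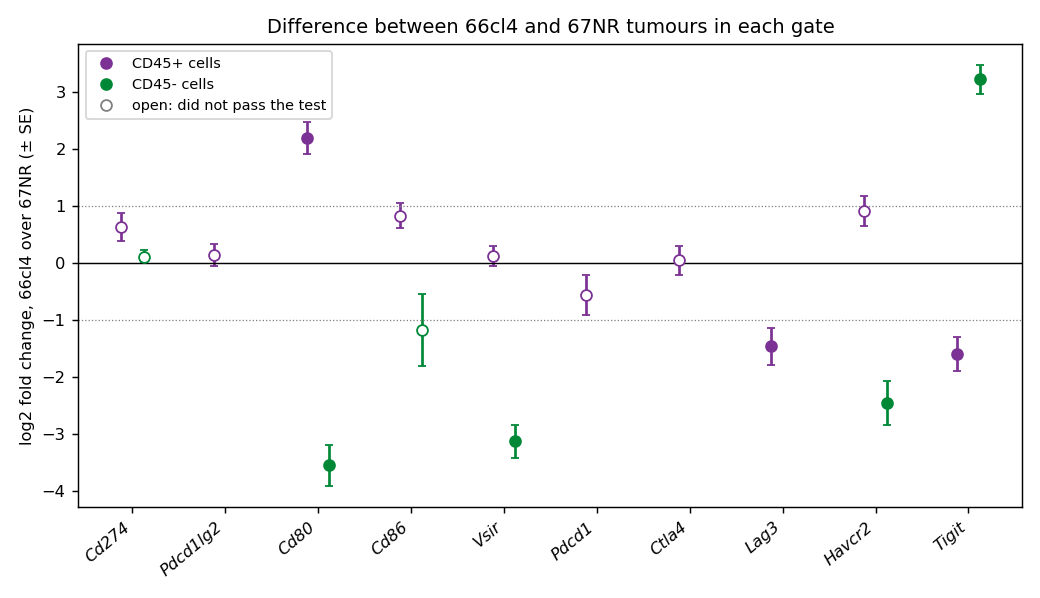
Log2 fold change of 66cl4 over 67NR tumours with its standard error (edgeR) for each checkpoint gene in CD45+ (purple) and CD45- cells (green); filled points passed the test, dotted lines mark the fold threshold, and genes without a green point were too low to be tested. Cd80 is at 2.19 and -3.54 and Tigit at -1.59 and 3.22, on opposite sides of 0 in the sorted fractions.

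Marker genes of the cells that carry these proteins were set beside these values. Of 11 T cell markers none passed the test between the CD45+ groups (median log2 fold change 0.06), and their summed normalised counts were 1961 to 8234 in 66cl4 libraries, against 2085 to 7892 in 67NR tumours. All 4 NK cell markers fell in 66cl4 tumours (median -2.57), with sums of 780 to 2301 against 1487 to 13898, the lowest of the latter being 67NR animal 1. Of 6 neutrophil markers 4 rose (median 1.73), with sums of 42357 to 118225 against 6911 to 49303, whereas 1 of 8 macrophage markers fell and none rose. Of 3 monocyte markers 2 fell (median -1.20). None of the 4 B cell markers passed (median 2.94), with sums of 124 to 11646 in 66cl4 libraries and of 343 to 2411 in 67NR libraries. Of 4 epithelial markers 2 rose in 66cl4 CD45+ cells, Krt8 by 4.87 ± 0.55 and Krt18 by 3.18 ± 0.58, and their sums of 623 to 944, against 261 to 320, compare with 6037 to 6816 in 66cl4 CD45- cells, in which Tigit was also high. The part of these lists in the differences of the checkpoint genes was not tested. No marker of these lists was at 0 in a whole CD45+ group.

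Relative to the summed level of the CD3 chains (Cd3d, Cd3e, Cd3g and Cd247), Tigit amounted to 6.74 to 24.9% in 66cl4 libraries, against 34 to 45.8% in 67NR tumours, without overlap (p = 0.00794, exact permutation test, unadjusted over 10 such ratios). Lag3 amounted to 1.86 to 6.48% and 5.00 to 13.1% (p = 0.0238, exact permutation test). When the 4 NK cell markers were added to the CD3 chains, a choice made after the values were seen, neither difference passed: Tigit amounted to 3.96 to 15.4% and 6.90 to 15.3% (log2 ratio -0.26, p = 0.516, exact permutation test) and Lag3 to 1.09 to 2.84% and 1.28 to 3.38% (log2 ratio -0.08, p = 0.897, exact permutation test). Ctla4 amounted to 17.7 to 58.1% and 17.6 to 49.4% of the CD3 chains alone (p = 0.746, exact permutation test), and with the NK cell markers added to 11.1 to 25.4% in 66cl4 libraries, against 2.65 to 17.2% in 67NR tumours (p = 0.0238, exact permutation test). Tigit, Lag3, Ctla4 and Pdcd1 share this denominator. Adding NK cell markers, which fell in 66cl4 tumours, therefore raised their log2 ratios by the same amount. Tigit went from -1.48 to -0.26, and Ctla4 from 0.13 to 1.35. These changes came from the NK cell markers in the denominator and are not particular to any of these genes.

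Cd80 amounted to 4.58 to 10.5% of the summed myeloid markers Csf1r, Adgre1, Cd68 and Itgam in 66cl4 and to 0.989 to 3.35% in 67NR tumours, without overlap (p = 0.00794, exact permutation test). With the neutrophil receptor gene Csf3r added, the values were 3.96 to 8.71% and 0.939 to 2.85%, again without overlap (p = 0.00794, exact permutation test). Relative to the same myeloid sum, Cd274, Pdcd1lg2, Cd86, Havcr2 and Vsir overlapped between the tumours, with exact permutation p-values of 0.135 to 0.675. Adgre1 itself fell and Itgam rose in 66cl4 tumours (log2 fold changes -1.11 and 1.18), so the myeloid sum did not weigh the same cells in both.

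**Figure D3:**
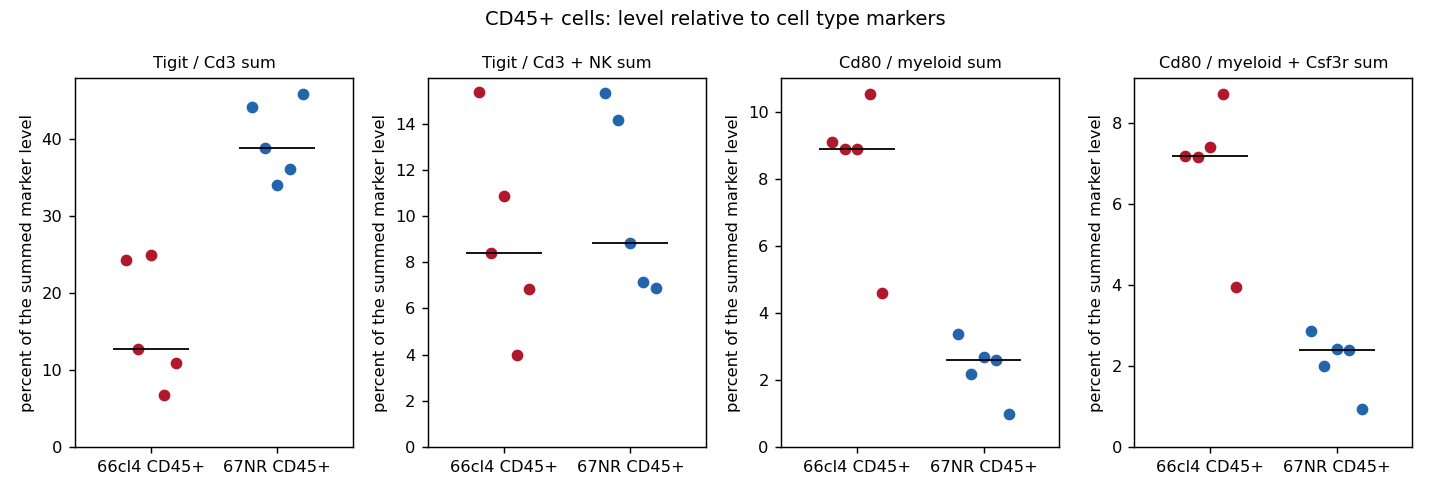
Level in CD45+ cells as a percentage of a sum of marker genes, for Tigit and Cd80, each with its first and a wider denominator; points are libraries and lines medians. The Tigit percentages are apart with the CD3 chains alone, 6.74 to 24.9 against 34 to 45.8, and overlap once the NK cell markers are added. Those of Cd80 are apart with either denominator. The wider denominators changed the sums by unlike amounts, so Tigit and Cd80 cannot be compared by them.

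The second comparison was made in CD45- cells, where 6 of the 10 genes were high enough to be tested. Tigit rose in 66cl4 tumours, Cd80, Vsir and Havcr2 fell, and Cd274 and Cd86 did not pass. These 4 of 6 compare with 32.2% of 14844 genes tested, of which 13.2% were higher and 18.9% lower in 66cl4. All 4 genes had groups that did not overlap, as had 52.9% of the genes tested. Pdcd1lg2, Pdcd1, Ctla4 and Lag3 were too low to be tested, with at most 17.5 normalised counts in any CD45- library.

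Tigit had 687.5, 902, 969, 1376 and 1028 normalised counts in the CD45- libraries of 66cl4 animals 3 to 7 and 58.8, 90.8, 122, 119 and 157.5 in those of 67NR animals 1, 4, 5, 6 and 7. All 66cl4 libraries were above all 67NR libraries, with a log2 fold change of 3.22 ± 0.25, or 9.29-fold (adjusted p = 2.32e-07, edgeR). At 62.2 ± 13.5 TPM (SD, n = 5) it was the highest of the 10 genes in 66cl4 CD45- cells and stood apart from Cd274, the next one, at 5.65 ± 0.57 TPM. In 67NR CD45- cells it had rank 3, at 6.82 ± 2.33 TPM.

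T cell markers were low in the same libraries. The CD3 chains summed to 8.10 to 30.9 normalised counts in 66cl4 CD45- libraries, against 818.6 to 3281 in 66cl4 CD45+ libraries, and the 11 T cell markers summed to 19.1 to 69.9. The 4 NK cell markers summed to 1.25 to 38.9. Tigit was 33.2 to 118 times the CD3 sum in 66cl4 CD45- cells, 1.70 to 10.3 times in 67NR CD45- cells, and at most 0.458 times in CD45+ cells; this ratio was also chosen after the values were seen. Cd226 and Cd96, the other receptors of the same ligands, had at most 2.50 and 2.995 normalised counts in 66cl4 CD45- cells, and among 4 regulatory T cell markers Foxp3, Il2ra and Ikzf4 had at most 8.98, 8.11 and 10.6. The remaining one, Ikzf2, was high and rose with Tigit, at 353 to 437 normalised counts in 66cl4 CD45- libraries against 86.1 to 169.5 in 67NR (log2 fold change 1.64 ± 0.16, adjusted p = 5.01e-07, edgeR). Of 9 regulators of T cell exhaustion 6 were tested in CD45- cells, where Nr4a2, Nr4a3, Tcf7 and Eomes rose in 66cl4 tumours and Prdm1 fell. Nr4a2 was also high in 67NR CD45- cells, at 769 to 1396 normalised counts against 1534 to 4428 in 66cl4. Tox, Batf and Tbx21 were too low to be tested, with at most 3.99, 10.6 and 2.00 normalised counts in 66cl4 CD45- cells. Tcf7, a transcription factor of T cells, had 105 to 132 normalised counts in 66cl4 CD45- libraries against 29.0 to 62.5 in 67NR (log2 fold change 1.57 ± 0.23, adjusted p = 3.05e-05, edgeR). Tigit was thus high together with some genes known from lymphocytes (Ikzf2, Tcf7 and Eomes) but not with others, and the CD3 chains and NK cell markers were low. Of 4 epithelial markers 2 also rose in 66cl4 CD45- cells and 1 fell (median log2 fold change 1.84). Their sums were 6037 to 6816 normalised counts in 66cl4 CD45- libraries, against 107 to 368 in 67NR CD45- libraries. Which cells held Tigit was not tested.

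**Figure D4:**
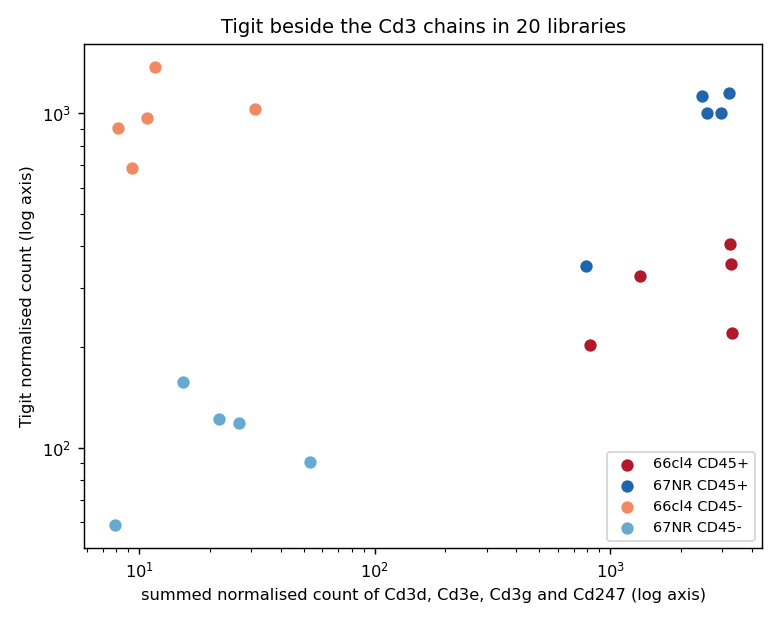
Tigit normalised count against the summed normalised count of the CD3 chains, both on log axes, for the 20 libraries. The 5 libraries of 66cl4 CD45- cells combine 687.5 to 1376 Tigit counts with a CD3 sum of 8.10 to 30.9, while the CD45+ libraries have CD3 sums above 792.

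No annotated gene overlapped Tigit (chromosome 16, 43648867 to 43664146, minus strand, GENCODE M21 on GRCm38). Its nearest described neighbour Zbtb20, on the opposite strand, ends 6264 bases from the end of Tigit. Zbtb20 was high in CD45- cells of both tumours (5808 to 8707 normalised counts) and did not pass the test between them (log2 fold change 0.05, adjusted p = 0.704, edgeR), unlike Tigit. Eomes, a T-box transcription factor of cytotoxic lymphocytes, had 173 to 200.1 normalised counts in 66cl4 libraries, against 1.75 to 8.59 in 67NR CD45- cells (log2 fold change 5.44 ± 0.29, adjusted p = 1.10e-09, edgeR).

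Cd80 had 7.96, 9.35, 39.1, 13.8 and 23.0 normalised counts in 66cl4 CD45- libraries and 255, 147, 245, 218 and 266 in 67NR CD45- libraries. The difference was opposite to that in CD45+ cells, with a log2 fold change of -3.54 ± 0.36 (adjusted p = 1.83e-06, edgeR). Vsir had 10.6 to 33.3 normalised counts in 66cl4 libraries, against 125.5 to 223 in 67NR cells (log2 fold change -3.12 ± 0.28, adjusted p = 3.19e-07, edgeR), and Havcr2 had 3.19 to 9.16 and 20.5 to 58.8 (log2 fold change -2.45 ± 0.38, adjusted p = 6.16e-05, edgeR). Several marker lists moved the same way in CD45- cells: besides Ptprc, 3 of 7 tested macrophage markers fell (median -1.77), with sums over all 8 of 157 to 1901 in 66cl4 libraries, against 1251 to 4427 in 67NR libraries, as did all 3 monocyte markers (median -2.81) and 2 of 4 tested neutrophil markers. Endothelial markers (2 of 3 lower, median -3.33) and fibroblast markers (3 of 5 lower, median -1.02) fell as well. Other leukocyte markers went the opposite way, since of 2 tested B cell markers Cd79a rose (55.8 to 87.9 normalised counts against 9.75 to 27.6), as did Ikzf2. Of 4 epithelial markers 2 rose and 1 fell (median 1.84). The part of these markers in the lower Cd80, Vsir and Havcr2 was not tested.

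Cd274 had 360, 358.5, 391, 343 and 313 normalised counts in 66cl4 CD45- libraries and 288, 435, 301, 325 and 327 in 67NR CD45- libraries. The groups overlapped and the log2 fold change was 0.11 ± 0.12 (95% interval of the estimate, -0.12 to 0.33; adjusted p = 0.425, edgeR). Its neighbour Pdcd1lg2 was at 0 counts in all 5 libraries of 66cl4 CD45- cells, which allows up to 3 counts in each, and had at most 5.47 normalised counts in 67NR CD45- cells. Cd86 had 2.65 to 41.6 normalised counts in 66cl4 libraries, against 14.9 to 60.02 in 67NR cells (log2 fold change -1.18 ± 0.62, adjusted p = 0.115, edgeR). The 66cl4 library of animal 5 was the highest of its group, and without it Cd86 passed the test at -2.09.

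Within 67NR tumours all 10 genes rose in CD45+ over CD45- cells, and within 66cl4 tumours 9 of 10 did, Tigit being the exception. Over all genes tested, 44.4% were called in 66cl4 (23.9% higher and 20.5% lower in CD45+ cells) and 39.8% in 67NR tumours (20.2% higher). In 66cl4 tumours Ctla4 was higher by 8.02 ± 0.31 on the log2 scale (adjusted p = 1.34e-09, edgeR), and Pdcd1lg2 and Pdcd1, at 0 in every 66cl4 CD45- library, were at least 65.9-fold and at least 51.7-fold higher against a floor of 3 counts per library. Tigit was lower in CD45+ than in CD45- cells of 66cl4 tumours by a log2 fold change of -1.74 ± 0.23 (adjusted p = 1.86e-05, edgeR), in 5 of 5 animals. In 67NR tumours it was higher in CD45+ cells by 3.08 ± 0.34 (adjusted p = 1.13e-05, edgeR), and the smallest difference was that of Cd80, at 1.70 ± 0.22 (adjusted p = 3.48e-05, edgeR).

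The level in CD45- cells as a percentage of that in CD45+ cells of the same animal was set beside that of Ptprc, which had a median of 0.198% in 66cl4 (0.0518 to 0.891%) and 1.17% in 67NR tumours (0.669 to 2.98%). For Tigit this share was 290% in 66cl4 (210 to 623%) and 12.2% in 67NR tumours (9.06 to 16.8%). Cd274 stood above Ptprc in both tumour types, at 12.4% (9.13 to 15.9%) and 19.6% (12.3 to 26.0%). Cd80 had 0.416% in 66cl4 (0.186 to 1.26%), a range that overlaps that of Ptprc although Cd80 was above Ptprc in 5 of 5 animals, but 27.5% in 67NR tumours (21.4 to 58.5%), where the 8 macrophage markers had medians of 1.81 to 3.04%. Havcr2 and Vsir likewise had 7.47% and 7.40% in 67NR and 0.947% and 0.744% in 66cl4 tumours. Lag3 had 6.96% in 66cl4 (6.15 to 33.0%) and 4.70% in 67NR tumours (1.90 to 15.2%), on 4.25 to 17.5 normalised counts in CD45- cells. Ctla4 and Pdcd1 had the lower shares among the T cell receptors, with medians of 0.254% and 0% in 66cl4 and 1.23% and 0.839% in 67NR tumours.

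**Figure D5:**
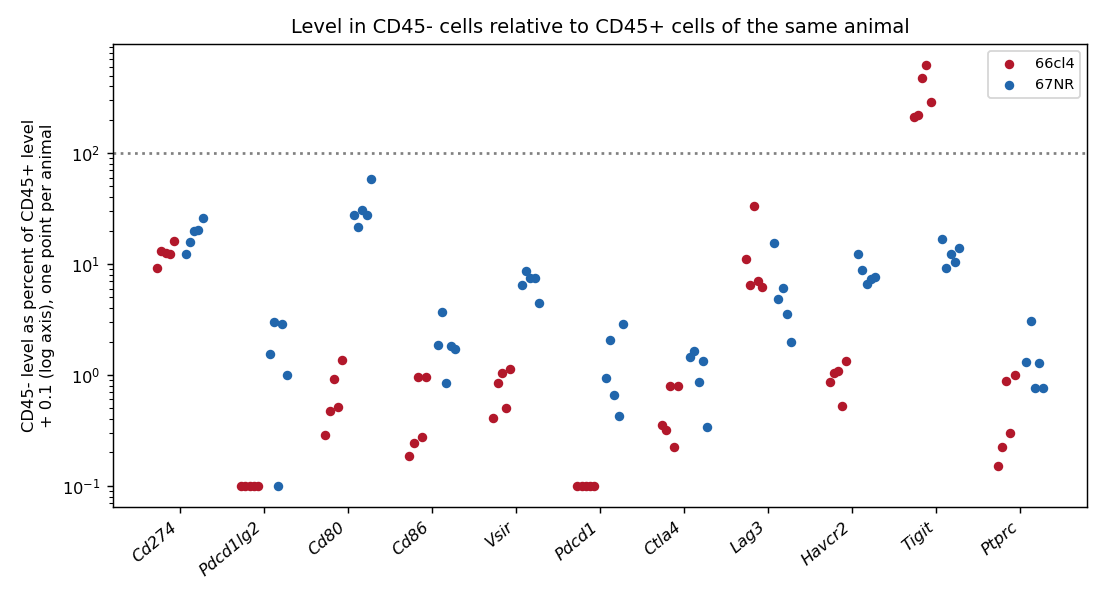
Level in CD45- cells as a percentage of the level in CD45+ cells of the same animal, plus 0.1, on a log axis, for the 10 genes and Ptprc; each point is 1 animal, red for 66cl4 and blue for 67NR, and the dotted line marks equal levels. Tigit lies above the line in the 5 animals with 66cl4 tumours, from 210 to 623%, and Cd80 at 21.4 to 58.5% in those with 67NR tumours.

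The tumour difference itself depended on the sorted fraction for 7 of the 10 genes (interaction of tumour and fraction, edgeR with all 20 libraries), against 43.1% of 16453 genes tested. The log2 difference between the tumour effect in CD45+ and that in CD45- cells was 5.74 ± 0.47 for Cd80, -4.81 ± 0.43 for Tigit, 3.36 ± 0.47 for Havcr2 and 3.24 ± 0.35 for Vsir (adjusted p of 1.16e-08, 4.47e-08, 1.23e-05 and 4.09e-07, edgeR). Ptprc, the gene behind the sort, had 1.65 ± 0.64 (adjusted p = 0.045, edgeR), and its part in the positive values was not tested. Cd86 (2.01 ± 0.63), Pdcd1lg2 (4.82 ± 1.08) and Pdcd1 (3.96 ± 1.41) also passed, the last 2 with 66cl4 CD45- libraries at 0. These last 2 were too low to be tested in CD45- cells alone and entered this fit through their CD45+ libraries. Ctla4, Lag3 and Cd274 did not (adjusted p of 0.053, 0.0555 and 0.114, edgeR); with the animal as a block, which joins the fractions of one tumour, Ctla4 (1.49) and Cd274 (0.55) passed. Over 26 alternatives Lag3 passed in 9 and Ctla4 in 6, with DESeq2 among the latter.

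Genes that act with these checkpoints were counted in the same fits. Of 13 partners, 11 were tested in CD45+ cells: Ceacam1, a ligand of TIM-3, rose in 66cl4 tumours (2.08 ± 0.18, adjusted p = 3.84e-05, edgeR), Nectin3 fell (-2.15 ± 0.51, adjusted p = 0.0128, edgeR), and 9 did not pass. Pvr, the main ligand of TIGIT, had 681 to 1459 normalised counts in 66cl4 libraries, against 388 to 592 in 67NR CD45+ cells, apart but under the fold threshold (log2 fold change 0.91 ± 0.21). In CD45- cells 9 partners were tested, of which Fgl1, a ligand of LAG-3, rose in 66cl4 tumours (2.92 ± 0.58, at a low level of 12.98 to 28.3 normalised counts) and Ceacam1 and Selplg fell. Pvr, Nectin2 and Nectin3 were present in CD45- cells of both tumours, at 591 to 1258, 151 to 310 and 1046 to 1258 normalised counts.

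Of 20 other costimulatory and coinhibitory genes, 18 were tested in CD45+ cells, where Tnfsf4 (OX40 ligand) rose by 1.21 ± 0.22 in 66cl4 tumours, Cd160 fell (-1.74 ± 0.49) and 16 did not pass (edgeR). In CD45- cells 6 were tested: Tnfsf9 (4-1BB ligand) rose (1.23 ± 0.17) and Cd200 (-2.95 ± 0.50) and Icosl (-1.48 ± 0.45) fell in 66cl4 tumours. Of 12 genes of PD-L1 induction and receptor signalling, Ifng, the cytokine that induces PD-L1, fell in 66cl4 CD45+ cells, from 108 to 617 normalised counts in 67NR to 25.1 to 68.5 in 66cl4 tumours (-3.08 ± 0.43, adjusted p = 0.000769, edgeR), and the other 11 did not pass. Of 9 regulators of T cell exhaustion, Nr4a1 (1.15 ± 0.19) and Nr4a2 (1.34 ± 0.34) rose and Tbx21 (-2.26 ± 0.57) and Eomes (-2.07 ± 0.55) fell in 66cl4 CD45+ cells. Tbx21 and Eomes are also regulators of NK cells, whose markers fell in the same libraries.

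The genes whose log2 levels were most like each checkpoint gene over the 10 CD45+ libraries were listed as a description. For Tigit they were Ifng (Pearson's r = 0.97), Cd7 (0.97) and Fam19a3 (0.97), and for Lag3 they were Nrgn, H2-K1 and Unc119b (0.97 to 0.98). Cd80 was most like Cd44 (0.99), Cd14 (0.99) and Ets2 (0.99), and Cd274 most like Ciart, Rhov and Lcn2 (0.97 each). Cd86 was most like Bambi (0.98), Prkar1a (0.97) and Junb (0.96), Havcr2 most like Stx3, Csrnp1 and Bcl10 (0.96 each), and Vsir most like Atp5g1 (0.97), Rrp7a (0.96) and Dhrs1 (0.96). The nearest genes were less close for Ctla4 (A430093F15Rik, 0.94; Trbv13-1, 0.87; Ears2, 0.86), for Pdcd1lg2 (Setd1a, 0.90; Casz1, 0.90; Col22a1, 0.89) and for Pdcd1 (Glp1r, 0.84; Tnfrsf4, 0.80; B3galt5, 0.79). These libraries belong to 5 animals of each tumour type and share the marker differences given above, so the values describe the 10 libraries only.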

How the data were processed

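RNA from sorted cells was sequenced as single reads after library preparation with the SENSE mRNA-Seq V2 kit. According to the methods and the submitters' processing notes, reads were trimmed with fastp, quantified per transcript with Salmon 1.3.0 and summed to genes with tximport, and the authors deposited these estimated counts for 20 libraries without normalisation. The notes name GRCh38, a human reference, although the gene identifiers are mouse ones, so the mouse build used for counting is not given in the sources used here. Strand settings are not given either.

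Estimated counts were rounded to whole numbers. Genes passing filterByExpr (minimum count 10, minimum total 15) were normalised by TMM and tested in edgeR 4.0.16 (quasi-likelihood test, R 4.3.3). Each comparison within a fraction used its own 10 libraries, and the interaction used all 20. A gene was called at a Benjamini-Hochberg adjusted p under 0.05 over all genes tested and an absolute log2 fold change above 1 (the interaction by adjusted p alone). The study's methods name DESeq2, of which version 1.42.0 served as an alternative. Normalised counts used DESeq2 size factors, and TPM used median transcript lengths of GENCODE M21 (GRCm38), which 1291 of the genes lacked. The script was tested on simulated counts. Exact permutation tests were two-sided over 252 splits of 10 libraries. Standard errors and the interval (estimate ± 1.96 SE) come from the edgeR fit and hold the variation between animals, while floors cover counting error only.

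The sorted fractions of an animal were treated as pairs in an alternative fit with the animal as a block, since both came from one tumour. The correlations of their deviations ran from 0.0239 to 0.123 in 66cl4 animals and from -0.0013 to 0.302 in 67NR animals. Replicate numbers shared between the tumour types link no animals. The named genes are the 10 checkpoint genes, the called or directly binding genes of 4 lists, and for each checkpoint gene the 3 genes most like it; cell type markers are named beside results they move with, and Zbtb20 was named after its values were seen. The members and lists were chosen with earlier results of these data known. Alternatives were DESeq2, another normalisation, other filters, the replicate block, other scalings and denominators, all libraries in a single fit, and leaving out each library or 66cl4 animals 5 and 6.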

Additional observations from a re-analysis of the deposited data

Results flagged for a closer look

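In 4 of 40 groups of 5 libraries, 1 library stood apart from the others by Dixon's criterion, where chance gives about 1 in 20 groups. Tigit in CD45+ cells of 67NR animal 1 had 349.6 normalised counts, against 1002 to 1150 in the other 4 animals. Cd274 in CD45- cells of 67NR animal 4 had 435 against 288 to 327. Lag3 in CD45- cells of 66cl4 animal 5 had 17.5 against 4.25 to 6.64, and Havcr2 in CD45- cells of 67NR animal 1 had 58.8 against 20.5 to 27.8.

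The tumour effect differed between CD45+ and CD45- cells by a test of the difference itself for 7 genes. On the log2 scale, the effect in CD45+ minus that in CD45- cells was 5.74 for Cd80, 4.82 for Pdcd1lg2, 3.96 for Pdcd1, 3.36 for Havcr2, 3.24 for Vsir, 2.01 for Cd86 and -4.81 for Tigit. Tigit was the only 1 of these 7 with a negative value. Pdcd1lg2 and Pdcd1 were too low to be tested in CD45- cells alone and entered this fit through their CD45+ libraries. In CD45- cells they were at 0 in 66cl4 tumours and had at most 7 and 9 counts in 67NR tumours. Their values rest on those few counts.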

How the results depend on the processing

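Cd80 and Tigit kept direction and call in CD45+ cells, as did Cd80, Tigit, Vsir and Havcr2 in CD45- cells, under each of the 17 alternatives run for those comparisons. With all 20 libraries in a single fit, 7 checkpoint genes were called in CD45- cells rather than 4. The filter then covered all 4 groups, and Pdcd1lg2, Pdcd1, Ctla4 and Lag3 passed it through their CD45+ libraries. In CD45- libraries these genes had at most 17.5 normalised counts, so the added calls rest on low counts. The number of checkpoint genes whose CD45+ groups did not overlap, 2, ran from 2 to 4 when single libraries were left out. With a single marker (Cd3e or Csf1r) as denominator, 7 rather than 3 of the 10 ratios passed, and 3 reversed: Pdcd1lg2 (0.328), Ctla4 (-0.138) and Vsir (0.32). With the wider denominator, chosen after seeing the data, Pdcd1 reversed to 0.843, the log2 ratios of Ctla4, Lag3 and Tigit shifting by the same amount. Without 66cl4 animals 5 and 6, the ratio of Ctla4 reversed to -0.0915. The cause was not tested. Leaving out single libraries turned the sign of small differences in CD45+ cells: the log2 fold change of Ctla4 ran from -0.104 to 0.217 and that of Pdcd1lg2 from -0.00577 to 0.239, their log2 ratios of mean levels from -0.101 to 0.207 and from -0.0203 to 0.234, and the ratio of Ctla4 to the CD3 chains from -0.0983 to 0.337. With the replicate block between the tumour types, whose numbers link no animals, Vsir in CD45+ cells had -0.0285 on the log2 scale; the block changed no call of a checkpoint gene other than those of Ctla4 and Cd274 in the interaction. The interaction of Pdcd1, which rests on counts of at most 9 in CD45- cells, missed the threshold in 8 of 26 alternatives and that of Cd86 in 2 of 26, among them the fit without CD45- cells of 67NR animal 4, which gave 3.13 and 1.61. Of the genes whose interaction was not called, Lag3 passed in 9, Ctla4 in 6 and Cd274 in 2 of 26 alternatives. Genes at 0 in a group are limited by depth to the floor of 3 counts.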

Other observations

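Among partners of the checkpoint receptors, the interaction of tumour and fraction was called for 8 of 12 tested, against 43.1% of all genes. Pvr, a ligand of TIGIT, had a log2 fold change of 0.91 ± 0.21 (66cl4 over 67NR) in CD45+ and of -0.56 ± 0.11 in CD45- cells, each under the fold threshold, and the difference between them was 1.49 ± 0.24 (adjusted p = 6.46e-05, edgeR). Nectin2 had -0.42 ± 0.28 and 0.60 ± 0.13, neither of them called, with a difference of the opposite sign, -1.01 ± 0.31 (adjusted p = 0.0122, edgeR). Nectin3, called in CD45+ cells, had -2.15 ± 0.51 and -0.04 ± 0.07, with a difference of -2.06 ± 0.49 (adjusted p = 0.00217, edgeR). Lgals9, which encodes a ligand of TIM-3, had -0.49 ± 0.18 and 0.55 ± 0.14, with a difference of -1.04 ± 0.26 (adjusted p = 0.00308, edgeR).

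Of 4 regulatory T cell markers none passed the test between the CD45+ groups, where Foxp3 had 238 to 551 normalised counts in 66cl4 tumours, against 165 to 370 in 67NR tumours.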
